A study of Oncorhynchus mykiss with 32 samples.

Results

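MAPK5 and MK12 are 2 kinase transcripts of the stress-activated MAP kinase pathway, measured in the liver of rainbow trout on a nylon array of 9023 trout cDNA clones. The MAPK5 clone (tcba0005.c.08) is named after its best protein match, mouse MAP kinase-activated protein kinase 5, and the MK12 clone (tcay0019.k.08) after zebrafish mitogen-activated protein kinase 12, also called stress-activated protein kinase 3. MAPK5 is thus a protein name and does not stand for a MAP kinase numbered 5. Both clones were selected because earlier results on these same samples pointed to them, MAPK5 for its difference between diets and MK12 for its differences between diets and between lines. These differences are therefore described below without a test. The measures that did not enter the choice were the line difference of MAPK5 and the interaction of line and diet for both clones. Their relation to other clones with group means removed did not enter it either. The clones shown as most like them were, however, picked by their correlation over the same arrays, so that relation is described only.

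In vertebrates, stress-activated MAP kinases of the p38 family are switched on by upstream kinases when cells meet osmotic shock, oxidants, cytokines or heat, and they pass the signal on by phosphorylating other proteins. MK12 (p38 gamma) is one of the p38 kinases and in mammals is best known from skeletal muscle. MAPK5 (also called PRAK) is a kinase one step further down, which is activated by MAP kinases and in mammals phosphorylates, among others, the small heat shock protein HSP27. Both proteins are mainly controlled by phosphorylation, which an array of transcripts does not measure.

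Fish came from a lean (L) and a fatty (F) muscle line, made by divergent selection, and were fed from first feeding for 6 months a diet with 10% (LE) or 23% (HE) lipid. Each line on each diet made 1 of 4 groups (L-LE and L-HE for the lean line, F-LE and F-HE for the fatty line) of 8 livers, each group held in 3 tanks, with livers taken the day after a meal. All groups received the same fishmeal-based mixture. The HE diet was made by adding fish oil, so that energy and the n-3/n-6 fatty acid ratio were also higher in it and protein and starch lower, which cannot be told apart here from lipid itself. The diet was given to tanks, and each line was a single selected population. A value is the log2 of the signal over the median of its array, so that 0 is the array median and 1 is double that.

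Between 7613 and 8134 clones had a value on each array, and both kinase clones had a value on all 32. The array of F-HE tank 3 on membrane 59 stood apart from the rest. Its median Spearman correlation with the other arrays was 0.159, against 0.829 to 0.967 for the others. The 128 spots that share an identifier, taken here as the luciferase controls, had a median of 0.71 on it. On the other arrays their median was 5.71 to 7.62. Why this array stood apart was not tested. The transcript of the plasma protein transthyretin (TTHY), made by the liver, ranked at percentile 24.6 of all clones on this array and between 93.9 and 98.1 elsewhere. A further liver transcript (APA11) was less far off, at percentile 65.3 against 89.0 to 97.2 elsewhere. Another 5 arrays had a median correlation under 0.9, and of these 6 arrays 3 were of L-LE, 1 of F-LE, 2 of F-HE and 0 of L-HE livers. Values are on all arrays unless stated otherwise, and many, but not all, are also given without membrane 59. With bulk liver RNA, fewer cells of a type and less RNA per cell cannot be told apart.

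MAPK5 was on average higher in livers of trout fed the HE diet than in those fed the LE diet, in both lines. Each tank held a single group, so the diets were compared between tanks. The mean of every HE tank was above that of every LE tank, but the closest of them were almost level. In the L-LE group it was at 0.01, -1.20 and -0.41 in tank 1, at -0.71 and -0.06 in tank 2, and at -0.84, 0.28 and 0.49 in tank 3. In the L-HE group it was at 0.79 and 1.14 in tank 1, at 0.79, 0.50 and -0.25 in tank 2, and at 1.09, 1.11 and 0.61 in tank 3. Of the 8 L-HE livers, 7 lay above the highest L-LE liver. The exception was the liver on membrane 17 (-0.25), the only L-HE liver below its array median.

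In the F line the same diet difference was seen at a lower level. In the F-LE group MAPK5 was at 0.31, 0.12 and -0.64 in tank 1, at -1.46, -1.07 and -0.49 in tank 2, and at -0.61 and -0.36 in tank 3. In the F-HE group it was at 0.33, 0.12 and 0.19 in tank 1, at -0.27 and 0.24 in tank 2, and at -0.64 (membrane 59), 0.17 and 0.74 in tank 3. Of the 8 F-HE livers, 2 were above the highest F-LE liver, fewer than in the L line, and 7 were above the F-LE median. On all arrays 2 of 8 F-LE livers were below the lowest F-HE liver, against 4 of 8 L-LE livers below the lowest L-HE liver. The lowest F-HE liver was the one on membrane 59. Without it, 6 of 8 F-LE livers were below every F-HE liver. All 7 remaining F-HE livers were then above the F-LE median, and 2 of them above the highest F-LE liver.

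**Figure D1:**
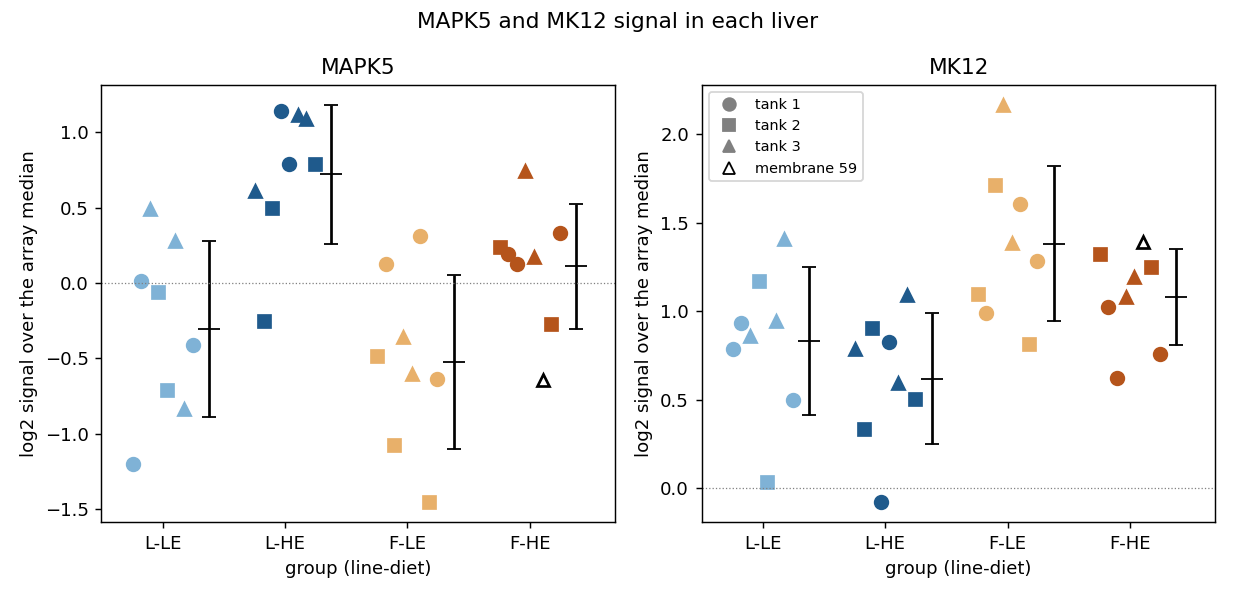
Signal of MAPK5 (left) and MK12 (right) in each of the 32 livers, as log2 over the array median, by group, with the tank shown by the symbol, membrane 59 as an open triangle and bars for the mean ± SD of 8 livers. MAPK5 was lowest in F-LE (-0.52) and highest in L-HE (0.72), and MK12 lowest in L-HE (0.62) and highest in F-LE (1.38).

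The mean level of MAPK5 in the L line was -0.30 ± 0.585 (SD, n = 8) on LE and 0.72 ± 0.460 on HE. In the F line it was -0.52 ± 0.577 on LE and 0.11 ± 0.413 on HE (0.22 ± 0.30, n = 7, without membrane 59). HE exceeded LE by 0.83 on the log2 scale over both lines (standard error 0.178), or 1.78-fold, and by 0.88 (1.84-fold) without membrane 59. This estimate ranked 23 from the highest of the 7763 clones with at least 5 values per group, and 36 of 7759 without membrane 59. Within the L line HE was 2.04-fold above LE (log2 difference 1.03), and within the F line 1.55-fold (0.63), or 1.67-fold (0.74) without membrane 59. Since diet differences chose this clone, these values are a description.

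The tanks told the same as the livers. The means of the 6 HE tanks ran from -0.02 to 0.96, and those of the 6 LE tanks from -1.005 to -0.02. All 6 HE tanks were above all 6 LE tanks, but the lowest HE tank (F-HE tank 2, -0.0196) and the highest LE tank (L-LE tank 3, -0.0226) were almost level. Relative to the other clones on the same array, MAPK5 ranged from percentile 6.56 in an F-LE liver to 71.9 in an L-HE liver.

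Ordered by group mean, MAPK5 ran from L-HE through F-HE and L-LE to F-LE. The step from L-HE to F-HE (0.61) was larger than the SD of livers within groups (0.514), whereas those from F-HE to L-LE (0.41) and from L-LE to F-LE (0.22) were smaller than it. Without membrane 59 the first step (0.50) was about equal to the SD (0.500), and the second (0.52) slightly exceeded it. The SD is the spread of single livers, so setting steps between group means beside it is not a test of the means.

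The line difference of MAPK5 had no part in its choice and was tested. MAPK5 was on average lower in the F line, with a difference of F minus L of -0.41 (standard error 0.178, 95% confidence interval -0.78 to -0.05), or 1.33-fold. All 8 F-HE livers lay below the L-HE median, and 5 of the 8 L-HE livers above every F-HE liver. On the LE diet the lines overlapped widely, with 6 of 8 F-LE livers below the L-LE median. The difference did not pass in limma after Benjamini-Hochberg adjustment over all clones (unadjusted p = 0.0265, adjusted p = 0.999, or 0.926 without membrane 59). On all arrays neither did any other clone (0% called at an adjusted p under 0.15). For line, 258 of the 7763 clones had an unadjusted p under 0.05 in limma, fewer than the 388 expected by chance. For diet the number was 283, also fewer. Over the 12 tank means, with lines exchanged within diets, a two-sided exact permutation test gave p = 0.07 for a difference of -0.43 (the smallest p it allows is 0.005). This test was run with membrane 59 only. With that membrane 3 F-HE tanks were below every L-HE tank, and without it 2 were.

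The line difference of MAPK5 was -0.61 in fish fed HE (95% confidence interval -1.12 to -0.10) and -0.22 in those fed LE (-0.73 to 0.30). Without membrane 59 the former was -0.50, with an interval of -1.01 to 0.0012 that reached 0. The interaction, the diet difference in the F line minus that in the L line, was -0.39 (standard error 0.356, 95% confidence interval -1.12 to 0.33, limma adjusted p = 0.576) and -0.29 (adjusted p = 0.841) without membrane 59. It did not pass the threshold, so that the diet difference was not shown to differ between lines, and the interval holds differences in either direction. No clone passed for the interaction (0% of 7763, with 523 at an unadjusted p under 0.05 in limma, against 388 expected by chance).

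The mean differences of MK12 had the reverse signs, with more signal in F than in L livers. MK12 was also lower on average with HE than with LE, on all arrays by less (-0.26 for diet, 0.51 for line). Without the 6 arrays of median correlation under 0.9 both differences were about equal in size (-0.42 for diet, 0.43 for line). With array weights they were -0.40 and 0.43. In the L-LE group MK12 was at 0.93, 0.79 and 0.50 in tank 1, at 0.03 and 1.17 in tank 2, and at 1.41, 0.95 and 0.86 in tank 3. In the F-LE group it was at 1.61, 0.99 and 1.28 in tank 1, at 0.82, 1.71 and 1.10 in tank 2, and at 1.38 and 2.17 in tank 3. On this diet 3 F-LE livers were above the highest L-LE liver, 3 L-LE livers were below the lowest F-LE liver, and the 3 F-LE tank means were all above the 3 L-LE tank means.

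In the L-HE group MK12 was at 0.83 and -0.08 in tank 1, at 0.50, 0.90 and 0.33 in tank 2, and at 1.09, 0.59 and 0.78 in tank 3. In the F-HE group it was at 0.76, 0.62 and 1.02 in tank 1, at 1.25 and 1.32 in tank 2, and at 1.39 (membrane 59), 1.20 and 1.08 in tank 3. As on LE, the lines overlapped only in part, and 4 of 8 F-HE livers were above the highest L-HE liver (3 of 7 without membrane 59, which held the highest value of the group). A single liver of the 32 had MK12 below its array median, the L-HE liver with -0.08.

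Mean MK12 levels in L fish were 0.83 ± 0.418 (SD, n = 8) with LE and 0.62 ± 0.370 with HE. In F fish they were 1.38 ± 0.438 with LE and 1.08 ± 0.271 with HE (1.04 ± 0.259, n = 7, without membrane 59). The F line was 1.42-fold above the L line over both diets (log2 difference 0.51, standard error 0.136, the 54th highest of 7763 clones), and 1.40-fold (0.48) without membrane 59. The difference was similar on both diets, 0.55 with LE and 0.46 with HE (0.42 without membrane 59). HE minus LE was -0.26 (standard error 0.136, 1.19-fold) over both lines, -0.21 in L and -0.30 in F fish, and without membrane 59 it was -0.28 over both lines and -0.35 in the F line. Both contrasts led to the choice of MK12 and are a description.

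Of the 6 F tanks, 5 had a mean MK12 level above every L tank. The exception was F-HE tank 1 (0.80), below L-LE tank 3 (1.07) and L-HE tank 3 (0.82). Each of the 3 steps between groups, from F-LE to F-HE (0.30), to L-LE (0.25) and to L-HE (0.21), was below the SD of livers within groups (0.380). This sets group means beside the spread of single livers and is not a test of the means. MK12 was at percentile 48.6 to 84.6 of the clones on its array.

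The interaction of line and diet for MK12, which did not enter its choice, was -0.09 (standard error 0.272, 95% confidence interval -0.65 to 0.46) and did not pass (limma adjusted p = 0.855). Without membrane 59 it was -0.14 (adjusted p = 0.904). Its sign depended on single livers, becoming 0.0212 without the L-LE liver on membrane 56 and 0.0197 without the F-LE liver on membrane 40.

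**Figure D2:**
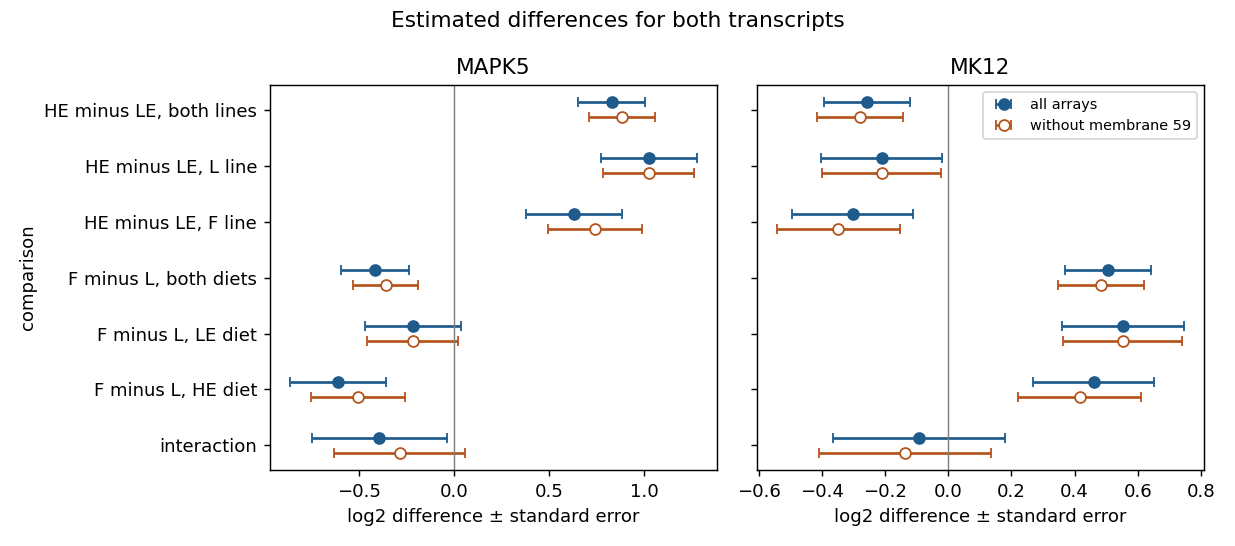
Log2 differences of MAPK5 (left) and MK12 (right) for each comparison, with standard errors from limma, on all 32 arrays (filled) and without membrane 59 (open). The diet difference was 0.83 for MAPK5 and -0.26 for MK12, and the line difference -0.41 and 0.51.

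By group mean, L-HE was highest for MAPK5 and lowest for MK12, and F-LE the reverse. The steps between neighbouring groups were mostly below the SD of single livers within groups, which is not a test of the means. The extremes, L-HE and F-LE, combine the contrasts that chose the clones. The signal of MK12 over that of MAPK5 on the same membrane is free of any scaling of the array, although it is not a ratio of transcript amounts, as the spots differ. The log2 of this ratio had a lowest, median and highest value of 0.37, 0.92 and 2.25 in L-LE livers and of -1.22, 0.02 and 0.59 in L-HE livers. In F-LE livers these were 0.86, 1.96 and 2.79, and in F-HE livers 0.34, 0.93 and 2.03. It was above 0 in all 8 livers of every group except L-HE, where this held for 5 of 8. Every F-LE liver was above every L-HE liver in this ratio. Without membrane 59 the highest F-HE value was 1.52. As the ratio combines the contrasts that chose both clones, it is given without a test.

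Liver by liver, the kinases showed little relation beyond the group means. Pearson's r of MAPK5 with MK12 was -0.29 over 32 arrays and -0.27 over 31 without membrane 59, and it became 0.14 once group means were removed. Within groups of 8 livers r was 0.17 for L-LE, 0.06 for L-HE, 0.23 for F-LE and -0.44 for F-HE. The last became -0.16 over the 7 livers other than that on membrane 59. Points of a correlation across livers share the array and its scaling, and they are given as a description. MAPK5 itself was lower on arrays that resembled the others less (r = 0.41 with the median Spearman correlation of the array, over 31 arrays), and none of the 6 least similar arrays was of the L-HE group. Without those 6 the diet difference of MAPK5 was 0.83 and its line difference -0.28, against 0.83 and -0.41 on all arrays. For MK12 the r with the median Spearman correlation of the array was 0.16. Without the 6 arrays its diet difference was -0.42 and its line difference 0.43, against -0.26 and 0.51 on all arrays. The part of array likeness in these differences was not tested.

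Over the 31 arrays other than membrane 59, the clone most like MAPK5 among 7504 clones, named or not, was the cytochrome P450 2J2 clone (CP2J2, tcay0039.p.23), with r = 0.92. In humans this enzyme converts arachidonic acid to epoxides. CP2J2 was at 2.51 ± 1.19 (SD, n = 8) for L-LE, 3.82 ± 0.608 for L-HE, 2.11 ± 0.719 for F-LE and 2.72 ± 1.25 for F-HE, the last becoming 3.16 ± 0.215 (n = 7) without membrane 59, where it was at -0.32. Its groups without that membrane thus stood in the same order as those of MAPK5. Over the 31 arrays r takes in the diet difference that chose MAPK5. The study had also listed its named clones for diet or line differences in these samples, so a shared order of groups is a description. Inside groups, with group means removed, r was 0.84, and the 95th percentile over all clones was 0.41. CP2J2 was picked for its r over these same arrays, which takes in the spread inside groups. A high r inside groups thus came in part with the choice and is a description too. Single livers went together: on membrane 17, where MAPK5 was at its lowest of the L-HE group, CP2J2 (2.45) was so too, against 3.57 to 4.28 in the other 7 livers.

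**Figure D3:**
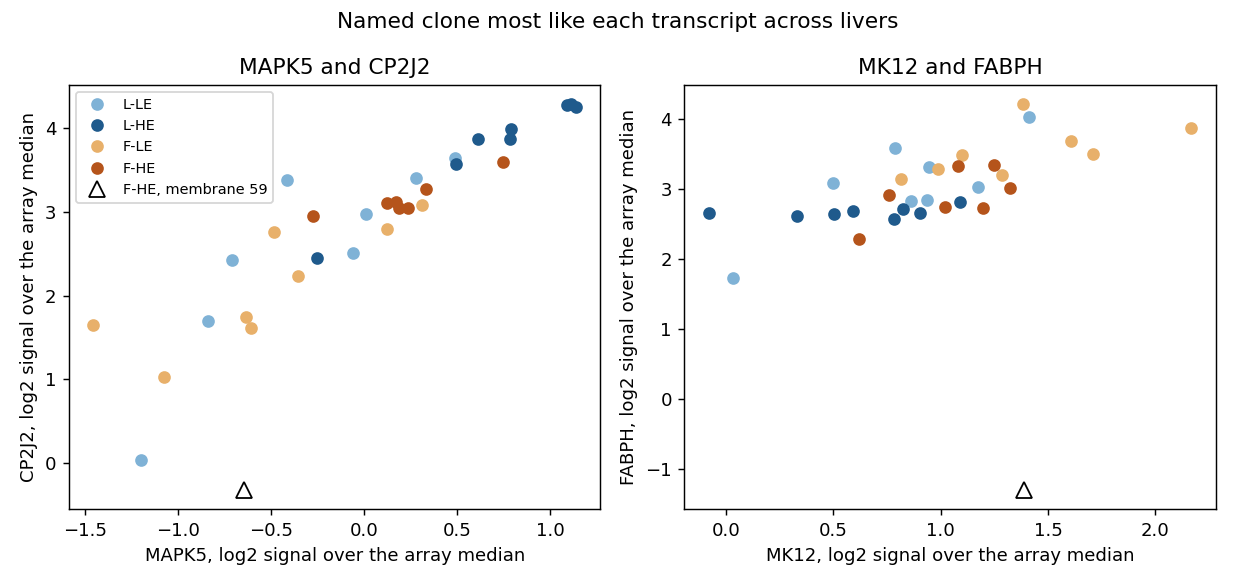
Each liver's log2 signal over the array median of MAPK5 against CP2J2 (left) and of MK12 against FABPH (right), coloured by group, with membrane 59 as an open triangle. High MAPK5 went with high CP2J2 across and within groups (r = 0.92 over 31 arrays), and membrane 59 had the lowest CP2J2 (-0.32) and the lowest FABPH (-1.30) of all livers.

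The next named clones by likeness to MAPK5 were FABG (tcba0005.n.01, r = 0.80), whose best protein match is a bacterial enzyme of fatty acid synthesis, and the band 3 anion exchanger (B3AT, r = 0.61). FABG was highest in L-HE (0.74 ± 0.313) and between 0.05 and 0.18 in the other groups. Band 3 is a membrane protein of red blood cells. It was at 3.21 ± 0.293 in L-HE and at 2.50 ± 0.691 in L-LE, 2.74 ± 0.205 in F-LE and 2.74 ± 0.775 in F-HE (2.98 without membrane 59), so that a red cell transcript was also highest in L-HE, and its part in the MAPK5 levels was not tested. The lowest r belonged to PIGF (-0.73), a protein of membrane anchor synthesis, which was the lowest of all 7504 clones, and to a clone matched to a hypothetical archaeal protein (Y041, -0.73).

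For MK12 the named clones with the highest r were a heart-type fatty acid-binding protein (FABPH, tcav0002.b.06, 0.73), which carries fatty acids in the cytosol, the lymphocyte antigen 75 (LY75, 0.69), an endocytic receptor of immune cells in mammals, and the glucose transporter GTR11 (0.68). Of these, FABPH (0.27) and GTR11 (0.35) were much less like MK12 when membrane 59 was kept, where they were at -1.30 and -1.26, whereas LY75 was not (0.70). Like MK12, all 3 had their highest mean in F-LE, at 3.55 ± 0.366 for FABPH, 0.56 ± 0.557 for LY75 and 1.91 ± 0.333 for GTR11. The differences that chose MK12 enter these r, so this too is a description. Among named clones the lowest r were those of PGRP2 (-0.51), an amidase that splits bacterial peptidoglycan, and of a dynein heavy chain clone (DYH1B, -0.46). With group means removed, r was 0.61 for FABPH and -0.12 for PGRP2, both picked by their r over these same arrays.

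Of the 313 clones that the study listed, 284 had a protein name. Of these, 18 were assigned by their names alone to protein kinases, protein phosphatases or stress response, apart from MAPK5 and MK12. In limma none of the 18 passed for diet (0.245% of all clones called), line or interaction, on all arrays or without membrane 59 (0.528% for diet, 0.0129% for line). The named clones had been named because the study had selected them on these samples, so that their differences are not independent evidence. The median difference of all clones tested was -0.01 for diet and 0.00 for line. On all arrays 3654 of the 7763 clones had a diet difference above 0, and 3974 a line difference above 0. The counts of signs below are to be read beside these.

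Of the 4 other clones named as kinases, PLK4 and STK19 had diet and line differences of the same signs as MK12. On all arrays 0 of the 4 had the signs of MAPK5. For diet, ATM, a kinase of the DNA damage response, had a difference of 0.53 (adjusted p = 0.79), DYR1A, a kinase that modifies itself on tyrosine, of 0.11, STK19 of -0.35 (-0.22 without membrane 59) and PLK4, which controls centriole duplication, of -0.44 (adjusted p = 0.542). Their median was -0.12 (-0.04 without membrane 59). For line all 4 had a difference above 0, from 0.09 for ATM to 0.23 for PLK4 with a median of 0.16, but without membrane 59 ATM was at -0.04, with the signs of MAPK5, and STK19 at 0.25 in place of 0.12. ATM was at 1.80 ± 0.216 (SD, n = 8) in L-HE, 1.34 ± 0.238 in L-LE and 1.36 ± 0.374 in F-LE, and in F-HE at 1.97 ± 0.916, or 1.70 ± 0.543 (n = 7) without membrane 59.

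Phosphatases remove the phosphate that kinases add, and those of the PP2C type act on the stress-activated pathway in mammals and yeast. The diet difference was 0.07 for PP2CA and 0.11 for PP2C1 (0.00 and -0.02 without membrane 59), and no phosphatase passed a test. The receptor-type phosphatase PTPRK had the largest diet difference of the 6 (-0.44, or -0.31 without membrane 59). PPR3D, which targets protein phosphatase 1 to glycogen, had the largest line difference (0.66, or 0.44 without membrane 59). On membrane 59 it was at 4.96, against 1.04 to 1.73 in the other F-HE livers.

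Of the 8 stress-response clones, 5 had a line difference above 0, with a median of 0.34 (0.21 without membrane 59). They were 8ODP, which removes oxidised nucleotides (0.63), CARD4, a sensor of bacterial wall fragments also known as NOD1 (0.53, or 0.34 without membrane 59), the cytokine IL17D (0.52, or 0.73 without membrane 59, then the highest of the 8), MSRA, which repairs oxidised methionine (0.38, or 0.14 without membrane 59), and the metal-responsive factor MTF1 (0.30). The others were at -0.06 for glutathione synthetase (GSHB), -0.09 for the transcription factor CEBPD and -0.22 for the chaperone calreticulin (CALR). None passed (adjusted p = 0.999 for each in limma). For diet, 6 of 8 were below 0, with a median of -0.11 (-0.22 and 7 of 8 without membrane 59), IL17D lowest at -0.80 (-0.60 without membrane 59).

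**Figure D4:**
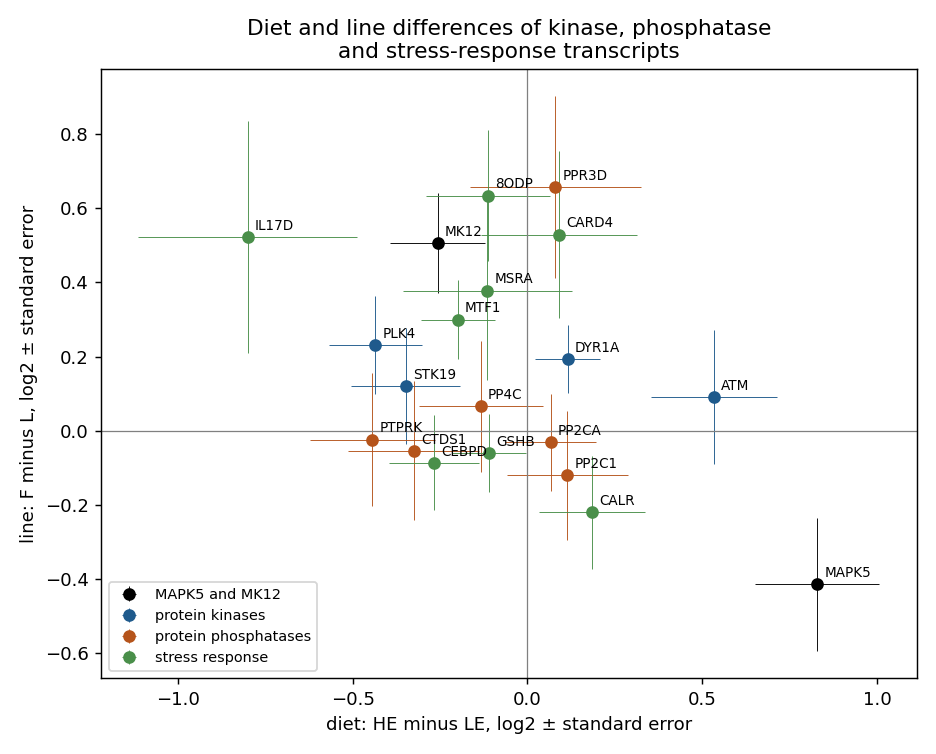
Diet difference (horizontal) against line difference (vertical) in log2 with standard errors, on all 32 arrays, for MAPK5, MK12 and the 18 other kinase, phosphatase and stress-response clones. MAPK5 lies at the lower right (0.83, -0.41) and MK12 at the upper left (-0.26, 0.51), and none of the 18 others passed a test.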

How the data were processed

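Per the labels and the methods, the authors hybridised labelled cDNA of single livers to nylon membranes, quantified spots with AGScan, excluded spots with little DNA, corrected each signal by an oligonucleotide probe for the DNA spotted, divided by the array median and deposited log10 values. Here these were converted to log2. A bare 0 marked an excluded spot and was treated as missing (41354 cells), whereas 17 zeros with decimals were kept. No water spot had a value, so that no background level was available. The methods state that 6 of 9 livers per group were hybridised, without naming them, and all 8 labelled per group were used. Clone names came from the study's additional files.

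Clones with 5 or more values in every group, 7763 in all, were fitted with limma 3.58.1 (R 4.3.3), with 1 mean per group, and p-values were adjusted over all of them by Benjamini-Hochberg (threshold 0.15, the false discovery rate of the methods). The fit was tested on simulated data. The number of arrays limits the precision. Livers of 1 tank shared its feed, and p-values over livers measure the spread between livers. The clones, the lists and the tests were chosen with earlier results of these data known. Named clones were both kinases, every clone of the lists, and for each kinase the 3 named clones with the highest and the 2 with the lowest Pearson r over the arrays other than membrane 59. Alternatives were quantile normalization, re-centring, filters on missing and dim clones, a variance trend, tank or membrane terms, means per tank, array weights, each array left out, a threshold of 0.05, and the two-way ANOVA of the methods.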

Additional observations from a re-analysis of the deposited data

Results flagged for a closer look

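A single liver was separated from the rest of its group by a large share of the group's range in 27 of 120 combinations of clone and group, a check that chance alone trips for about 1 in 20. On membrane 17 (L-HE), 3 clones were flagged as low together: MAPK5 at -0.25 (others 0.50 to 1.14), CP2J2 at 2.45 (others 3.57 to 4.28) and FABG at 0.0641 (others 0.66 to 1.14). CP2J2 and FABG were in the check because of their r with MAPK5 over arrays that include this one. Their low values there are therefore not independent of that of MAPK5. Without the liver on membrane 17 the diet difference of MAPK5 was 0.90, its line difference -0.48 and its interaction -0.53.

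Membrane 59 (F-HE) was the liver set apart in 14 of the 27. MAPK5 and MK12 were not among these. High on it were 8ODP at 1.62, CARD4 at 3.24, MSRA at 4.46, PP2C1 at 1.05, PP2CA at -0.18 and PPR3D at 4.96. Low on it were CP2J2 at -0.32, CTDS1 at 1.69, FABPH at -1.30, GTR11 at -1.26, IL17D at -1.03, PGRP2 at -0.48, PP4C at 0.0415 and STK19 at 0.0402.

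The F-LE liver on membrane 62, 1 of the 6 arrays of low correlation, was set apart for CEBPD at -0.59, DYH1B at -0.36, GSHB at -0.43, PP2CA at -0.83, PTPRK at 0.44 and Y041 at 4.88. GSHB also stood apart on membranes 65 (F-HE, -0.68) and 56 (L-LE, -0.77), both in that set, and PP4C on membrane 68 (L-LE, 1.27). In L-LE the liver on membrane 19 had MSRA at 1.63 (others 0.75 to 0.90).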

How the results depend on the processing

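The diet difference of MAPK5 ranged from 0.76 to 0.90 with each array left out and from 0.78 to 0.88 under the other alternatives, that of MK12 from -0.31 to -0.20 and from -0.42 to -0.24, and the line difference of MK12 from 0.45 to 0.55 and from 0.43 to 0.57. The line difference of MAPK5 ranged from -0.48 to -0.35 with each array left out (adjusted p 0.926 to 1) and was -0.28 when the 6 arrays that correlated least with the rest were left out (an alternative chosen after seeing the data). The exact permutation over tank means gave p = 0.07, and the two-way ANOVA of the methods, with a threshold of 0.01, an unadjusted p of 0.0304. The interaction of MAPK5 ranged from -0.53 to -0.27 and that of MK12 from -0.19 to 0.0212 with each array left out, and the latter was 0.0804 with quantile normalization (adjusted p = 0.908), against -0.09. The cause was not tested. None of these 3 tested results passed under any alternative.

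The number of clones called by diet, 19, was 14 to 41 with each array left out, 41 without membrane 59, 34 with membrane number as a covariate, 104 with array weights, 74 without the 6 arrays of low correlation, 10 at a threshold of 0.05 and 0 with means per tank (12 tanks in place of 32 livers). The number called by line, 0, was 0 to 1 with each array left out, 1 without membrane 59, 12 with array weights and 2 without the 6 arrays. The number called by interaction, 0, was 0 with each array left out and 4 with array weights.

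Tank numbers were not seen to pair the samples. Tanks with the same number had a median correlation of deviations of -0.003 (-0.402 to 0.45, n = 18 pairs of tanks). For other pairs it was 0 (-0.539 to 0.6, n = 36). The pairs share tanks, so this comparison cannot show that pairing is absent. With tank number as a replicate block the line difference of MAPK5 was -0.41 (adjusted p = 0.997), its interaction -0.50 (adjusted p = 0.479) and the interaction of MK12 -0.12 (adjusted p = 0.791), and the counts were 21 for diet, 0 for line and 1 for interaction.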

Other observations

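The L-LE liver on membrane 19 had the lowest values of MAPK5 (-1.20) and CP2J2 (0.03) in its group, while MK12 (0.79) was near the group median there. The clone numbers of MAPK5 (tcba0005.c.08) and FABG (tcba0005.n.01), the second most similar of the 7504 clones to MAPK5, share their first part.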
